A study of Rattus norvegicus with 4 samples.

Results

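Adora2a, Adora1, Gpr6, Gpr52, Adcy5 and Ppp1r1b are genes of the cAMP pathway of striatal neurons. They were chosen by symbol, and each was found once among the 30560 genes listed, so they are 6 of 30560. Dopamine and adenosine both act on spiny neurons, the projection neurons of the striatum, through receptors that raise or lower cAMP. Adora2a encodes the adenosine A2a receptor, which is coupled to stimulatory G proteins, is found on the spiny neurons with dopamine D2 receptors and is a target of caffeine. Adora1 encodes the A1 receptor, which is coupled to inhibitory G proteins and is widespread in brain. Gpr6 and Gpr52 encode orphan receptors that raise cAMP without an added ligand and are known from the same D2 neurons. Adcy5 encodes the main adenylyl cyclase of the striatum, on which these receptors converge, and Ppp1r1b encodes DARPP-32, a substrate of protein kinase A that inhibits protein phosphatase 1 once phosphorylated.

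Single nuclei came from nucleus accumbens of Sprague-Dawley rats aged 90 to 120 days, with no genetic change named in the labels. Cocaine rats received cocaine at 20 mg per kg in saline intraperitoneally once a day for 7 days, and control rats received equal volumes of saline. All were placed in an open field after injection. A 2 mm punch around the core was collected 1 hour after the final injection. Each of the 4 libraries (saline female, saline male, cocaine female and cocaine male) pooled 4 rats, so each treatment had 2 libraries, the sex of the pool is the only label that separates them, and a value belongs to a pool rather than to a rat. By its title the series addresses the response of D1 spiny neuron subpopulations to cocaine.

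The 26228 barcodes carried 31484217 to 40737786 UMIs (counted RNA molecules) per library, and 24843 nuclei were kept. Their 30 clusters gave 15 classes named from marker genes, while 9 clusters with 702 nuclei stayed unnamed. Any pair of libraries shared 10 to 18 barcodes. D1-like nuclei (832 to 1358 per library) had Drd1 at 106 CPM and D2-like nuclei (686 to 1010) had Drd2 at 792 CPM, where CPM is UMIs per 1000000 UMIs of the class. Casz1-rich nuclei (169 to 258) had Drd1 at 110 CPM and Casz1 at 248 CPM. A class with both Casz1 (249.5 CPM) and Drd2 (952 CPM) held 68 to 100 nuclei. Grm8-rich nuclei (249 to 268) had Grm8 at 2838 CPM and Drd1 at 45.5 CPM. Drd3-rich nuclei (42 to 108) had Drd3 at 403 CPM. They were shallow, with a median of 2918 UMIs against 7383 in D2-like nuclei. The Klhl1 and Htr7 class of GABAergic neurons (804 and 388 nuclei in the female and male saline pools, 455 and 297 in the cocaine pools) and glutamatergic neurons (30 and 49, then 252 and 116) varied in number between libraries, and the reason was not tested.

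The 6 genes were kept out of the genes used for clustering and are in no marker list, so that their levels did not place the nuclei. Levels between classes are nevertheless a description with no test, because the classes come from the same nuclei. Of the 6 genes, 4 matched RefSeq's table of start sites (build GRCr8). The 250 bases before the start of Gpr6 (chr20:46075252-46075501, minus strand) and Gpr52 (chr13:75338408-75338657, minus strand) are shown because these receptor genes shared the pattern of Adora2a over classes (below). Capitals mark the cAMP response element TGACGTCA and its first 5 letters TGACG, each searched on both strands, and a TGACGTCA holds TGACG on both strands.
Gpr6: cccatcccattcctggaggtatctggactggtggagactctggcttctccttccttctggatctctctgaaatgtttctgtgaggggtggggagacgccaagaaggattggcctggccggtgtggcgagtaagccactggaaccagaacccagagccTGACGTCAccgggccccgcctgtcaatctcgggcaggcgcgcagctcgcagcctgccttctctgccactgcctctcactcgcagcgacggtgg
Gpr52: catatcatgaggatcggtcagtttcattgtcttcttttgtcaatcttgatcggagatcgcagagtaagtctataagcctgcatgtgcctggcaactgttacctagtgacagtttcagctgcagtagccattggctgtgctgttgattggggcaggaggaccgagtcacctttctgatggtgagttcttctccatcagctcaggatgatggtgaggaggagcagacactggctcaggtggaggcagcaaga
The Gpr6 window held 1 TGACGTCA, beginning 93 bases before the start, and no TGACG outside it. Neither motif was in the windows of Gpr52, Adora1 or Adcy5. Over all 33469 windows of this length, 1.59% held TGACGTCA and 18.2% held TGACG. A match is a run of letters and was not tested as a site.

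The adenosine A2a receptor gene was high in 2 classes. In D2-like nuclei Adora2a stood at 216 and 217 CPM with saline and at 191 and 225 CPM with cocaine (female and male pools). In Casz1- and Drd2-rich nuclei the same 4 libraries gave 212, 199, 204 and 212 CPM. The 2 classes overlapped, at 212 ± 14.8 and 207 ± 6.60 CPM (SD over 4 libraries). The next classes were Drd3-rich (13.9 CPM on 13 UMIs) and Casz1-rich nuclei (13.1 ± 2.43 CPM, SD, n = 4), and every other class was at or below 6.15 CPM. At least 1 Adora2a UMI was seen in 70.4% to 80.0% of D2-like nuclei per library, whose median depth was 6369 to 9699 UMIs.

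D1-like nuclei held Adora2a at 2.17 to 6.52 CPM. The D2-like level was 34.6 to 100 times the D1-like level across the 4 libraries. In D1-like nuclei 1.48% to 3.48% had an Adora2a UMI at a median of 6739 to 9969 UMIs. Oligodendrocyte-like nuclei, which were far shallower, had one in 0.681% to 1.17%. Whether the UMIs of either class are background was not tested. Expected shares after thinning every nucleus to 1000 UMIs were 0.226% to 0.673% in D1-like and 0.362% to 0.720% in oligodendrocyte-like nuclei. The highest D1-like share lay below the highest oligodendrocyte-like share, so these shares do not set the D1-like class as a whole above oligodendrocyte-like nuclei. The Htr4 cluster of the D1-like class, described below, reached 0.962% in the cocaine male library, above the highest oligodendrocyte-like share, on 31 UMIs.

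Both orphan receptor genes followed Adora2a. Gpr6 was at 52.9 and 76.9 CPM in D2-like nuclei of the saline female and male libraries and at 62.1 and 84.4 CPM in those of the cocaine libraries. Both female pools lay below both male pools, which was not tested. In Casz1- and Drd2-rich nuclei Gpr6 was at 26.2, 41.4, 52.9 and 48.0 CPM in the saline female, saline male, cocaine female and cocaine male libraries. D2-like nuclei were higher than these in 4 of 4 libraries, by 1.17 to 2.02 times, although the ranges over libraries overlapped. Every other class was at or below 6.50 CPM, and in Sst-like nuclei no Gpr6 UMI was seen, which at 3 UMIs allows up to 11.2 CPM in the shallowest library.

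Gpr52 showed the opposite order of the 2 classes. It stood at 47.6 ± 7.31 CPM in Casz1- and Drd2-rich nuclei (SD, n = 4) and at a mean of 36.0 CPM in D2-like nuclei, and the first class was higher in 4 of 4 libraries. Libraries of the 2 classes did not overlap (39.3 to 56.6 and 34.1 to 37.8 CPM). In D1-like nuclei Gpr52 was at 2.42 to 5.67 CPM, near the 1.26 to 4.25 CPM of oligodendrocyte-like nuclei. In microglia-like nuclei no Gpr52 UMI was seen, which at 3 UMIs allows up to 16.1 CPM in the shallowest library.

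The A1 receptor gene was not a gene of one neuron class. Adora1 was highest in oligodendrocyte precursor-like nuclei, at 106, 79.6, 101 and 112 CPM in the saline female, saline male, cocaine female and cocaine male libraries. Oligodendrocyte-like nuclei followed at 87.9, 51.3, 85.8 and 73.2 CPM, overlapping the precursors between libraries but lower in 4 of 4 libraries, by 1.18 to 1.55 times. Within oligodendrocyte-like nuclei the 3 clusters stood at 91.5, 68.2 and 40.2 CPM. The cluster at 40.2 CPM held 143 of 1308 nuclei in the saline male library, the library with the lowest Adora1. It held 61 of 1982 in the saline female, 87 of 1910 in the cocaine female and 124 of 1454 in the cocaine male library. The part of this mix in the levels was not tested. Among spiny neurons Adora1 was at 55.4 ± 10.6 CPM in Casz1- and Drd2-rich, 38.1 ± 3.62 CPM in Casz1-rich, 23.5 ± 1.52 CPM in D2-like and 20.4 ± 2.46 CPM in D1-like nuclei (SD, n = 4). The Casz1- and Drd2-rich class exceeded the D2-like class in 4 of 4 libraries, by 1.88 to 3.04 times, and D1-like and D2-like nuclei overlapped. Astrocyte-like nuclei were at 36.1 ± 11.6 CPM and Grm8-rich nuclei at 14.8 ± 2.83 CPM (SD, n = 4).

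The cyclase was shared by the spiny neuron classes. Adcy5 stood at 815, 814, 738 and 814 CPM in D1-like and at 774, 796, 728 and 801 CPM in D2-like nuclei of the saline female, saline male, cocaine female and cocaine male libraries. D1-like nuclei were higher in 4 of 4 libraries, by only 1.01 to 1.05 times. Casz1-rich (710 ± 24.2 CPM), Casz1- and Drd2-rich (649 ± 64.2 CPM) and Drd3-rich nuclei (517 ± 71.9 CPM) came next, and each overlapped its neighbour in this order (SD, n = 4). Grm8-rich nuclei stood apart from these at 265 ± 31.5 CPM (SD, n = 4), with no overlap. The D1-like level was 2.64 to 3.32 times the Grm8-rich level within libraries. Among glia, oligodendrocyte-like nuclei were at 158 ± 7.90 CPM, astrocyte-like nuclei at 40.8 ± 6.66 CPM and microglia-like nuclei at 11.4 ± 7.76 CPM (SD, n = 4). The level in oligodendrocyte-like nuclei was 3.32 to 4.57 times that in astrocyte-like nuclei of the same library.

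DARPP-32 separated the spiny neurons more sharply than the cyclase. Ppp1r1b was at 187, 188, 182 and 210.2 CPM in D1-like and at 164, 180.0, 163 and 205 CPM in D2-like nuclei of the saline female, saline male, cocaine female and cocaine male libraries. D1-like nuclei were higher in 4 of 4 libraries, by 1.03 to 1.14 times, and the classes overlapped. Casz1- and Drd2-rich (149 ± 23.7 CPM) and Casz1-rich nuclei (132 ± 13.5 CPM) followed (SD, n = 4). Grm8-rich nuclei held 30.3, 34.6, 33.6 and 32.4 CPM in the same order of libraries, and the D1-like level was 5.42 to 6.49 times higher. Drd3-rich nuclei were at 27.7 ± 14.0 CPM (SD, n = 4) on 29 UMIs. Both means lay above those of neurons that are not spiny, from 11.5 CPM in Pthlh-like to 23.8 CPM in glutamatergic nuclei, whose libraries (14.3 to 35.6 CPM) overlapped both. Microglia-like nuclei were at 33.7 CPM.

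Astrocyte-like nuclei held more Ppp1r1b than any other class outside the D1-, D2- and Casz1-rich spiny neurons. The level was 82.7, 74.1, 80.4 and 109 CPM in the saline female, saline male, cocaine female and cocaine male libraries. It was 3.30 to 5.54 times that of oligodendrocyte-like nuclei in the same libraries. Spiny neuron markers went both ways between these glia. Drd1 was at 3.26 to 5.36 CPM in astrocyte-like and 3.73 to 6.62 CPM in oligodendrocyte-like nuclei, but Rarb was at 118 to 128 CPM against 16.4 to 29.8 CPM. The 7 D1 markers summed to 334 to 464 CPM in astrocyte-like and 18.4 to 41.0 CPM in oligodendrocyte-like nuclei, and the 8 general spiny markers to 1337 to 1505 CPM and 1769 to 1801 CPM. Over all libraries astrocyte-like nuclei had Drd1 at 4.31 and Ebf1 at 1.26 CPM. Other genes of the D1 list made up most of its sum there. The part of all these markers in the Ppp1r1b level was not tested. After thinning to 1000 UMIs the expected share with a Ppp1r1b UMI was 7.35% to 10.9% in astrocyte-like and 1.53% to 3.28% in oligodendrocyte-like nuclei.

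**Figure D1:**
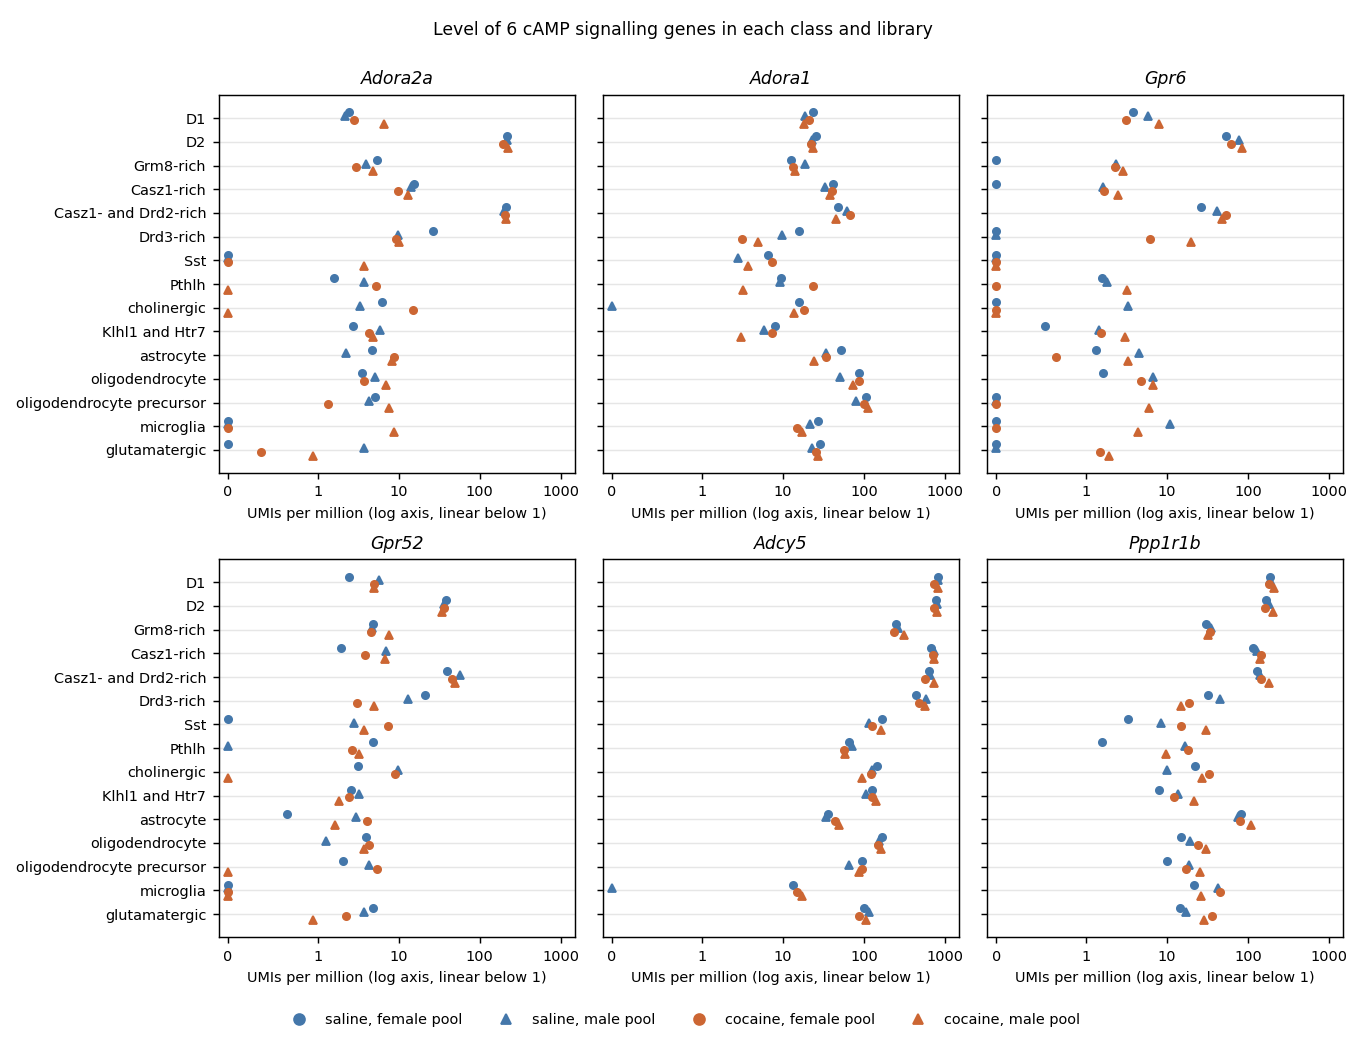
CPM of the 6 genes (horizontal axis, logarithmic above 1 and linear below) in 15 classes (rows), with 1 point for each library (blue saline, orange cocaine, circles female pools, triangles male pools). Adora2a, Gpr6 and Gpr52 are high in the D2 and the Casz1- and Drd2-rich rows, Adora1 is highest in the oligodendrocyte rows, and Adcy5 and Ppp1r1b are high in the D1, D2 and Casz1-rich rows.

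The Grm8-rich and Casz1-rich nuclei formed 1 cluster that split into 4 sub-clusters, and the cyclase, DARPP-32 and A1 receptor genes had lower mean levels in the 2 with more Grm8. The split used the variable genes without the 6, and the limit between the 2 names was set after the data were seen. Ppp1r1b was at 141 ± 14.4 and 127 ± 13.5 CPM in the 2 Casz1-rich sub-clusters and at 44.6 ± 2.99 and 12.7 ± 3.01 CPM in the 2 Grm8-rich ones (SD over 4 libraries). Adcy5 in the same order was at 754 ± 42.1, 686 ± 24.2, 334 ± 41.6 and 148 ± 35.5 CPM. Adora1 was at 33.1, 40.4, 19.6 and 6.67 CPM, and Drd1 at 109, 109.9, 59.7 and 23.4 CPM. The lowest Casz1-rich library lay above the highest Grm8-rich library for Adcy5 (669 against 385 CPM) and for Ppp1r1b (108 against 47.4 CPM). For Adora1 they overlapped, at 21.3 and 26.4 CPM. Adora2a was at 19.6, 10.0, 4.35 and 4.19 CPM, highest in the smaller Casz1-rich sub-cluster (43 UMIs in 267 nuclei).

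**Figure D2:**
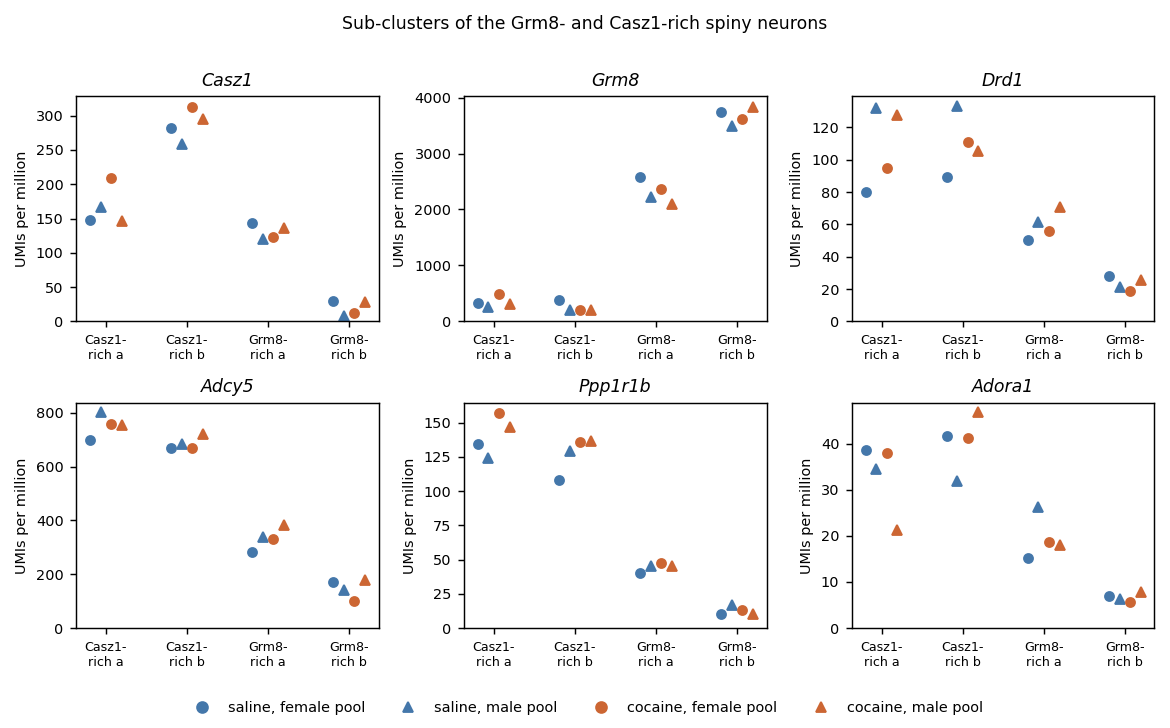
CPM (vertical axis from 0) of Casz1, Grm8, Drd1, Adcy5, Ppp1r1b and Adora1 in the 4 sub-clusters, with 1 point for each library (blue saline, orange cocaine, circles female pools, triangles male pools). The 2 Grm8-rich sub-clusters hold less Adcy5 and Ppp1r1b than the 2 Casz1-rich ones in every library, and the sub-cluster with the most Grm8 holds the least.

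The D1-like class joined a Reln cluster and an Htr4 cluster, which are described apart by a choice made after the data were seen. Ppp1r1b was at 202 to 222 CPM in the Reln cluster and at 139 to 188 CPM in the Htr4 cluster, with no overlap between libraries. Adcy5 was at 755 to 856 CPM and at 713 to 785 CPM, which overlapped. Adora1 overlapped as well, at 21.5 ± 2.79 and 18.5 ± 1.67 CPM (SD, n = 4).

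The genes most like each of the 6 were sought over the 15 classes by Pearson correlation of log2(CPM + 1), among 11089 other genes that reached 20 CPM in a class. The 15 points share libraries and differ in depth, so the values describe these classes only. For Adora2a the nearest genes were Gpr52 (r = 0.92), Gpr6 (0.89) and Upb1 (0.88). The nearest to Gpr6 were Itgb6 (0.89), Adora2a (0.89) and Upb1 (0.88), and the nearest to Gpr52 were Adora2a (0.92), Itgb6 (0.86) and Gucy1a1 (0.85), which encodes a subunit of soluble guanylyl cyclase. Adcy5 was nearest to Tcaf1 (0.93), Pde1b (0.92), a phosphodiesterase, and Carf (0.90). Ppp1r1b was nearest to Rem2 (0.93), Ppp2r5d (0.88) and Art3 (0.88). Adora1 had the least close neighbours, Il1rap (0.84), Foxn2 (0.81) and Ppp2r2a (0.81). Between Adcy5 and Ppp1r1b r was 0.54, and between Adora2a and Adora1 it was 0.32.

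Cocaine and saline libraries were compared in the 14 classes with at least 25 nuclei in each library, on UMIs summed per library, with edgeR's quasi-likelihood test and sex as a covariate. A gene was called at a Benjamini-Hochberg adjusted p under 0.05 over all genes tested in the class. In a sum over a class, fewer nuclei with a transcript and less RNA per nucleus cannot be told apart. P-values rest on the spread between pools of rats, with 1 residual degree of freedom per gene, which edgeR shares between genes. This sharing was complete (infinite prior degrees of freedom) in D2-like, Casz1-rich, Drd3-rich, Sst-like, astrocyte-like, oligodendrocyte-like and oligodendrocyte precursor-like nuclei. There the spread is that of a trend over genes, and a gene's own spread between its pools had no weight. None of the 6 genes was called in any class. Low counts left 50 tests of a gene in a class, 5 with an unadjusted p under 0.05, and DESeq2 also called 0. Over all genes tested, that p was reached by 225 of 8630 in glutamatergic nuclei, the lowest share. In oligodendrocyte-like nuclei, with the highest share, 1160 of 10749 reached it. The 50 log2 fold changes ran from -0.58 to 1.22 with a median of 0.07, and 31 were above 0. The background of called genes was 0.287% of 13258 tested in D1-like, 0.75% in D2-like, 0.0101% in Grm8-rich, 0.739% in Casz1-rich, 0.0876% in Casz1- and Drd2-rich and 1.66% in Drd3-rich nuclei. It was 0.441% in Sst-like, 0% in Pthlh-like, 0% in Klhl1 and Htr7, 0% in glutamatergic, 1.36% in astrocyte-like, 1.27% in oligodendrocyte-like, 0.0705% in oligodendrocyte precursor-like and 0.0728% in microglia-like nuclei. At such shares 0 of at most 6 genes is near the background.

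In D2-like nuclei all 6 genes passed the filter and their 2 treatments overlapped, where 34% of all genes tested did not. Adora2a was at 217 ± 1.08 CPM with saline and 208 ± 24.3 CPM with cocaine (SD, n = 2), a log2 fold change of -0.11 ± 0.08 (SE) with an interval from -0.26 to 0.04 and an edgeR adjusted p of 0.707. The log2 fold change was 0.13 ± 0.09 for Gpr6, -0.11 ± 0.12 for Gpr52 and -0.13 ± 0.14 for Adora1 (SE), none of them called, with edgeR adjusted p from 0.707 to 0.841. Adcy5 was at 785 ± 15.1 CPM with saline and 765 ± 51.7 CPM with cocaine (SD, n = 2), with an interval of the log2 difference from -0.22 to 0.05. Ppp1r1b was at 172 ± 11.3 and 184 ± 29.2 CPM (SD, n = 2), with an interval from -0.11 to 0.20. For Adora2a, Adcy5 and Ppp1r1b the cocaine female pool was low and the cocaine male pool high, with both saline pools between them. The intervals of these 3 genes rest on a spread shared over genes. Under it they reach no farther than 0.26 from 0 on the log2 scale. That bounds a difference and does not show that there was none.

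In D1-like nuclei the abundant members were as close between treatments. Adcy5 was at 814 ± 0.954 CPM with saline and 776 ± 53.7 CPM with cocaine (SD, n = 2), a log2 fold change of -0.10 ± 0.07 (SE) with an edgeR adjusted p of 0.745. Ppp1r1b was at 188 ± 0.672 and 196 ± 19.8 CPM (SD, n = 2), with a log2 fold change of 0.04 ± 0.08 (SE, edgeR adjusted p 0.935). Log2 fold changes of Adora1 (-0.13 ± 0.12), Gpr6 (0.12 ± 0.26) and Gpr52 (0.29 ± 0.30, SE) were not called and turned sign on leaving out single libraries, with edgeR adjusted p from 0.825 to 0.940.

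Adora2a was the 1 gene of the 6 whose treatments did not overlap in D1-like nuclei, against 34.1% of all genes tested there. It had 21 and 23 UMIs in the female and male saline pools (2.42 and 2.17 CPM) and 32 and 64 in the cocaine female and male libraries (2.82 and 6.52 CPM). The log2 fold change was 0.96 ± 0.34 (SE), with an unadjusted p of 0.0151 and an edgeR adjusted p of 0.429. It was 0.21 between the female pools and 1.56 between the male pools. All 4 values lay below the highest oligodendrocyte-like library, at 7.04 CPM. Of the 5 D2 markers, Penk moved with it, at 5.66 and 14.2 CPM in the saline female and male and 15.7 and 29.5 CPM in the cocaine female and male libraries, and Drd2 was at 3.81, 5.58, 3.61 and 9.27 CPM in the same order. The summed list was at 170.2 and 183 CPM with saline and 181 and 206 CPM with cocaine, and Sp9 was at 0 in 3 libraries. Ptprm made up most of that sum, at 159.3 and 159.8 CPM, then 160.2 and 163.7 CPM. The part of these markers in the result was not tested.

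The difference of the cocaine effect between D2-like and D1-like nuclei was tested with the library as a block, where edgeR called 9 of 13157 genes, 0.0684%. None of the 6 was called. Adora2a came closest, at -1.08 ± 0.28 (SE, D2-like minus D1-like, edgeR adjusted p 0.213), resting on the D1-like values just given. With no filter on low counts it was called, at -1.06 with an edgeR adjusted p of 0.0206. The interval of this difference ran from -0.10 to 0.11 on the log2 scale for Adcy5 and from -0.15 to 0.15 for Ppp1r1b.

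**Figure D3:**
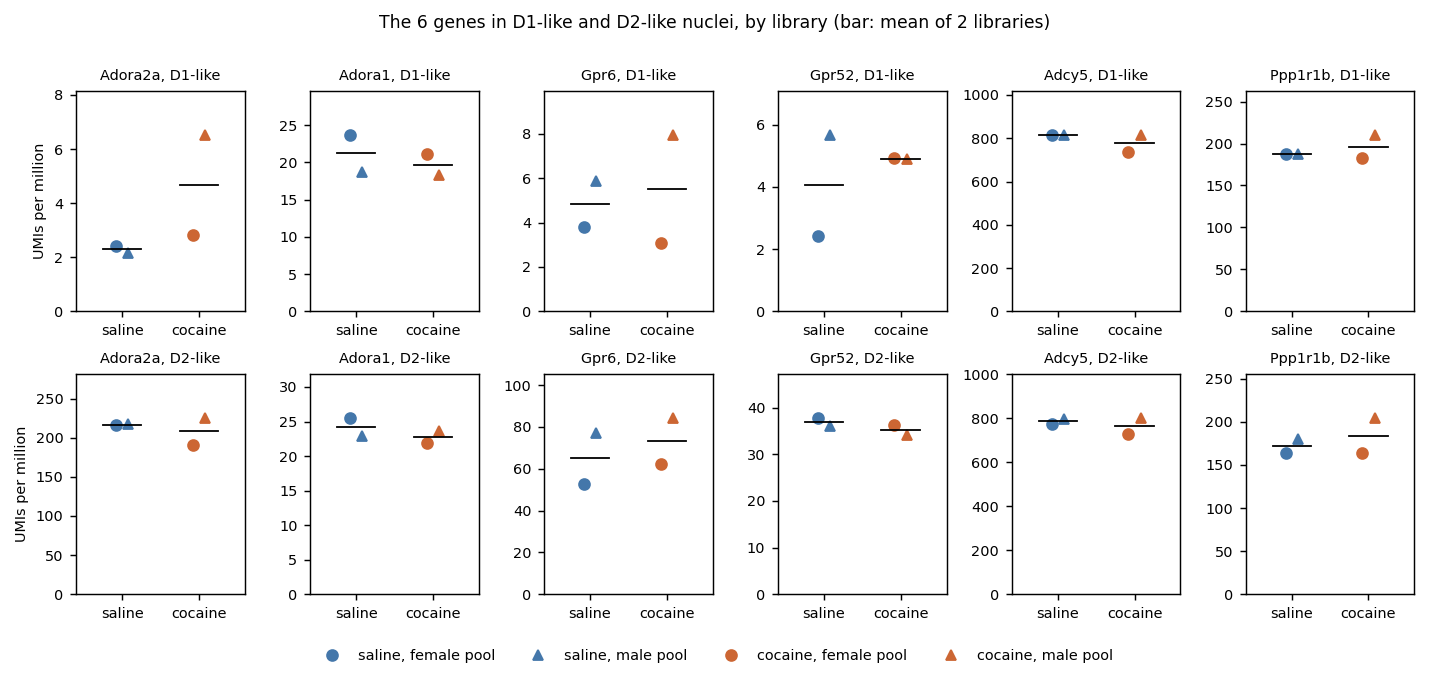
CPM (vertical axis from 0, a scale for each panel) of the 6 genes in D1-like (top) and D2-like nuclei (bottom), with 1 point for each library (circles female pools, triangles male pools) and a bar at the mean of the 2 libraries of a treatment. Saline and cocaine points overlap in 11 of the 12 panels, and the exception is Adora2a in D1-like nuclei, where all values lie between 2.17 and 6.52. Of all genes tested, 34.1% in D1-like and 34% in D2-like nuclei did not overlap.

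In the smaller spiny neuron classes the DARPP-32 gene was not called either. In Casz1-rich nuclei Ppp1r1b was at 114 and 128 CPM with saline and 144 and 140.1 CPM with cocaine (female and male pools). Its log2 fold change was 0.22 ± 0.13 (SE, edgeR adjusted p 0.726), and 2 of 5 members tested there did not overlap, against 34.3% of all genes. In Casz1- and Drd2-rich nuclei it was 0.27 ± 0.17 (SE, edgeR adjusted p 0.811), and Gpr6 was 0.54 ± 0.30 (SE, edgeR adjusted p 0.807). These were the 2 of 6 members without overlap there, against 35.3% of all genes. In Grm8-rich nuclei Ppp1r1b differed by 0.00 ± 0.23 and Adcy5 by 0.05 ± 0.12 on the log2 scale (SE), with overlap.

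In glia the smallest adjusted p of the 6 genes belonged to DARPP-32. In oligodendrocyte-like nuclei Ppp1r1b was at 14.9 and 18.9 CPM with saline and 24.4 and 30.6 CPM with cocaine (female and male pools), on 64, 45, 86 and 74 UMIs. Both cocaine pools lay above both saline pools, 1 of 6 members without overlap there, against 32.6% of all genes. The log2 fold change was 0.65 ± 0.20 (SE) and did not pass, with an edgeR adjusted p of 0.0709. Spiny neuron markers went both ways beside it. Rarb was at 17.7 and 16.4 CPM with saline and 29.7 and 29.8 CPM with cocaine, and the 7 D1 markers summed to 18.4 and 27.3 CPM with saline and 35.1 and 41.0 CPM with cocaine, with 5 to 7 of them seen per library. Drd1 itself overlapped, at 3.73 and 4.625 CPM with saline and 4.25 and 6.62 CPM with cocaine. The 8 general spiny markers, with Rarb among them and all seen, summed to 1801 and 1799 CPM with saline and 1769 and 1783 CPM with cocaine. The 5 D2 markers summed to 233 and 273 CPM with saline and 199 and 403 CPM with cocaine. Ptprm made up most of that sum, at 206 and 235 CPM, then 167 and 330 CPM. Penk was at 21.0 and 32.4 CPM with saline and 29.5 and 61.2 CPM with cocaine. The part of all these markers in the result was not tested. Adcy5 in the same nuclei differed by -0.12 ± 0.10 on the log2 scale (SE).

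In astrocyte-like nuclei Adora1 was at 52.3 and 33.7 CPM with saline and 34.2 and 24.4 CPM with cocaine (female and male pools), which overlapped. Its log2 fold change was -0.58 ± 0.24 (SE, unadjusted p 0.0154, edgeR adjusted p 0.356), and it ran from -0.86 to -0.24 on leaving out 1 library. Adora2a there had 7 and 3 UMIs with saline and 13 and 10 with cocaine (female and male pools), with a log2 fold change of 1.22 ± 0.53 (SE, edgeR adjusted p 0.424). It was 0.45 when doublets were kept. Adora2a and Adcy5 were the 2 of 4 members without overlap in this class, against 35.6% of all genes. The remaining gene with an unadjusted p under 0.05 was Ppp1r1b in the Klhl1 and Htr7 class, at 0.62 ± 0.27 (SE, edgeR adjusted p 0.910), where the treatments overlapped. Ppp1r1b in glutamatergic nuclei (1 of 3 members without overlap, against 34.3% of all genes) was at 0.92 ± 0.40 (SE, edgeR adjusted p 1.00). Adcy5 in Pthlh-like nuclei (the 1 member tested, without overlap, against 36.1%) was at -0.32 ± 0.27 (SE, edgeR adjusted p 0.881). The 4 members tested in the Klhl1 and Htr7 class, and 1 each in Drd3-rich and Sst-like nuclei, overlapped, where 35%, 35.2% and 37.3% of all genes did not.

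**Figure D4:**
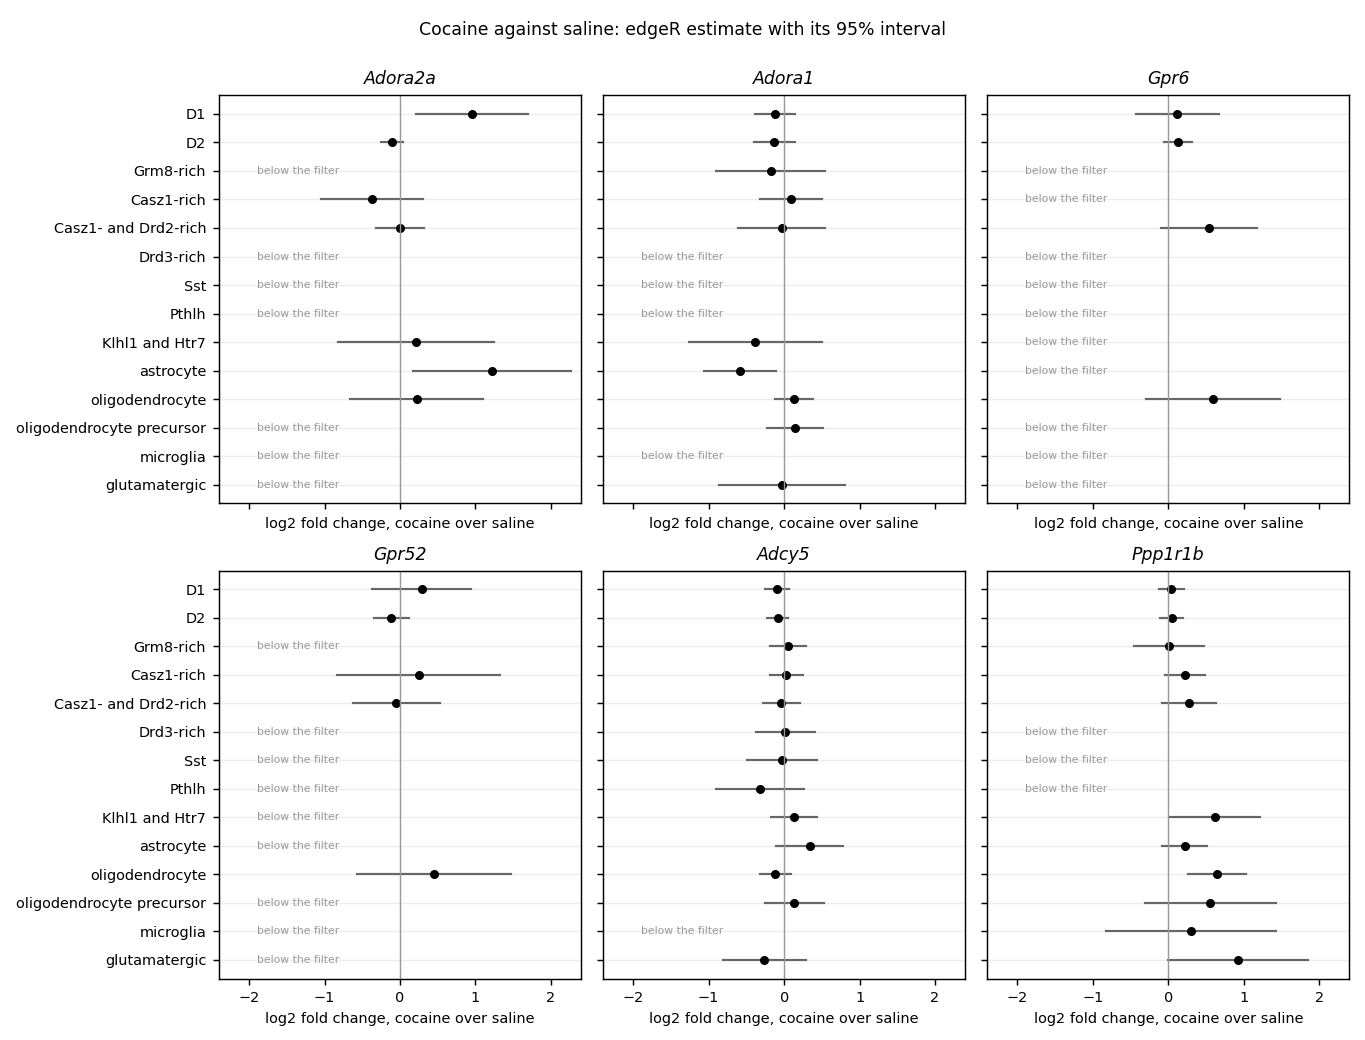
Log2 fold change of cocaine over saline (horizontal axis) for the 6 genes in 14 classes, with the edgeR estimate as a point and its 95% interval as a line, and grey text where counts were under the filter. The D1 and D2 intervals of Adcy5 and Ppp1r1b are narrow and hold 0, and the farthest points are those of Adora2a in D1 and astrocyte rows and of Ppp1r1b in glutamatergic nuclei.

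The rest of the pathway was read from a list of 84 genes of receptors, G proteins, cyclases, phosphodiesterases, protein kinase A, phosphatases, other effectors and adenosine supply, of which 83 were among the listed symbols. Over the 14 classes edgeR called 11 of 872 tests of a list gene in a class, 5 higher and 6 lower with cocaine. Tests count rows of the listed genes, and a symbol can have more than 1 row. In D1-like and in D2-like nuclei 13 rows were tested for the 12 genes of phosphatases and their inhibitors. By class, 0% to 4.84% of the list was called, against 0% to 1.66% of all genes. The list was chosen with earlier results of these data known, so its shares are not independent of these data. Of the 11 calls, 9 were of phosphodiesterase genes, whose products break down cyclic nucleotides. These were Pde1c, Pde4b, Pde4d, Pde7b and Pde10a, some of them called in several classes. Phosphodiesterases were 12 of the 84 listed genes. Of those tested, 2 of 11 were called in Drd3-rich and in astrocyte-like nuclei and 2 of 12 in oligodendrocyte-like nuclei. In D2-like, Casz1-rich and Sst-like nuclei it was 1 of 11 each, and the other classes had none. The part of their abundance in the calls was not tested. In D1-like nuclei 0 of 75 were called, against 0.287% of all genes, and DESeq2 called 0. There 6 of 75 had an unadjusted edgeR p under 0.05, against 1171 of 13258 genes tested. The median log2 fold change was -0.03 against 0.00 over all genes. In D2-like nuclei 1 of 73 was called, against 0.75% of all genes, with a median of -0.06 against 0.00. That gene was Pde4b, at 1738 and 2139 CPM with saline and 1520 and 1704 CPM with cocaine (female and male pools). It fell by 0.31 on the log2 scale (SE 0.07, edgeR adjusted p 0.00312). It lost its call with DESeq2, without the sex covariate and without any library but the saline female.

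In Casz1-rich nuclei 1 of 68 was called, against 0.739% of all genes. Pde7b was at 1577 and 1915 CPM with saline and 2604 and 2258 CPM with cocaine (female and male pools). It rose by 0.47 ± 0.11 on the log2 scale (SE, edgeR adjusted p 0.0082) and lost its call with DESeq2, without the sex covariate and without the cocaine female library. In Drd3-rich nuclei Pde4b (-2.86 ± 0.36, SE) and Pde1c (-2.32 ± 0.60, SE) were 2 of 50 called, against 1.66% of all genes. Pde4b was at 346 and 159 CPM with saline and 37.0 and 34.7 CPM with cocaine, but with doublets kept its log2 fold change was 0.24, above 0. Its call was also lost without the sex covariate. Pde1c was at 79.9 and 55.3 CPM with saline and 24.7 and 0 CPM with cocaine and lost its call in 7 of 11 alternatives. In Sst-like nuclei Pde10a, the phosphodiesterase abundant in spiny neurons, was the 1 of 59 called, at 0.93 ± 0.15 (SE), and it was not called in 6 of 11 alternatives. Of all genes 0.441% were called there. Spiny neuron marker lists went both ways beside Pde10a. The 7 D1 markers (4 to 6 seen) summed to 105.5 and 217 CPM with saline and 242 and 239 CPM with cocaine (female and male pools), and the 6 Casz1-rich markers (4 or 5 seen) to 105.5 and 167 CPM with saline and 299 and 378 CPM with cocaine. Casz1 and Otof themselves were at 0.749 and 2.25 CPM over all libraries, so other genes of that list made up most of its sum. The 8 general spiny markers summed to 2638 and 2809.6 CPM with saline and 2989 and 2846 CPM with cocaine. The 5 D2 markers summed to 1484 and 1599 CPM with saline and 1300.5 and 1380.0 CPM with cocaine. Drd2 and Penk themselves were at 39.7 and 24.7 CPM over all libraries, so other genes of that list made up most of its sum. The Grm8-rich list summed to 1118 and 719 CPM with saline and 1038 and 931 CPM with cocaine. The Drd3-rich list summed to 442 and 375 CPM, then 324 and 415 CPM. Their part in the result was not tested.

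Astrocyte-like nuclei had 3 of 62 called, against 1.36% of all genes, in a class where p-values rest on a spread shared over genes. Pde10a was at 86.0 and 39.7 CPM with saline and 535 and 318 CPM with cocaine (female and male pools). It rose by 2.74 ± 0.14 on the log2 scale (SE, edgeR adjusted p 2.14e-84) and was called in all 11 alternatives, from 0.89 with doublets kept to 3.37. The 8 general spiny markers, all seen, summed to 1486 and 1417 CPM with saline and 1337 and 1505 CPM with cocaine there. The 7 D1 markers summed to 362 and 334 CPM with saline and 426 and 464 CPM with cocaine, with 6 or 7 seen. Drd1 itself was at 3.31 and 5.24 CPM with saline and 5.36 and 3.26 CPM with cocaine. The 5 D2 markers summed to 726 and 671 CPM with saline and 598 and 604 CPM with cocaine. Ptprm made up most of that sum, at 704 and 656 CPM, then 581 and 563 CPM. Penk was at 18.5 and 13.5 CPM with saline and 16.1 and 39.1 CPM with cocaine, and Drd2 at no more than 2.65 CPM. Rarb, a general spiny marker, was at 128 and 119 CPM, then 121 and 118 CPM. Their part in the result was not tested. Pde7b rose by 0.42 ± 0.10 and Adcy8, a calcium-stimulated cyclase, fell by 0.83 on the log2 scale (SE 0.14). Both lost their calls with DESeq2 and without the sex covariate. Pde7b also lost its call on leaving out any 1 of the 4 libraries (0.21 to 0.60) and at 1000 genes per nucleus, and Adcy8 without the saline female (-0.42) or the cocaine male library (-0.52). In oligodendrocyte-like nuclei 3 of 65 were called, against 1.27% of all genes. Pde4d fell by 0.48 (SE 0.08) and Pde4b by 0.23 (SE 0.06) on the log2 scale, and Arpp21, which encodes a cAMP-regulated phosphoprotein of spiny neurons, rose by 0.81 (SE 0.17). Arpp21 was at 16.8 and 24.8 CPM with saline and 37.7 and 34.8 CPM with cocaine, beside the spiny neuron markers given above for Ppp1r1b. Pde4b was called in 3 of 11 alternatives, Arpp21 in 5 and Pde4d in 6.

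**Figure D5:**
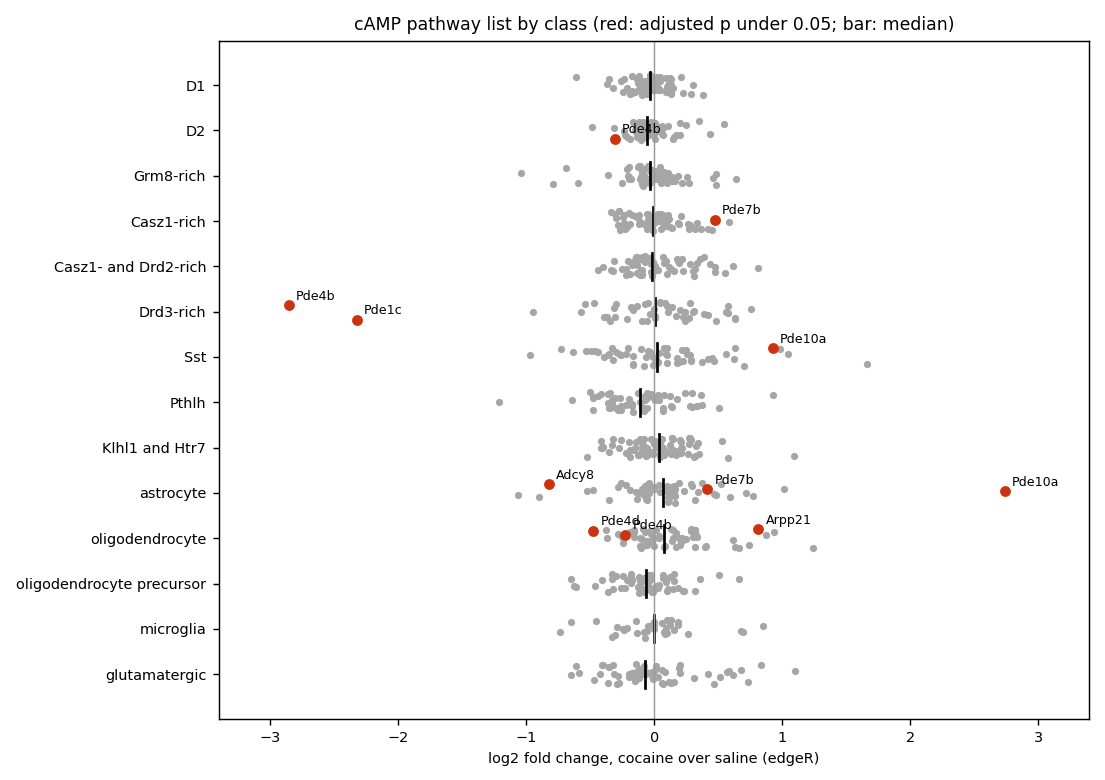
Log2 fold change of cocaine over saline (horizontal axis, edgeR) for the listed cAMP pathway genes in 14 classes (rows), with called genes in red and named and a bar at the median of the list. The medians lie between -0.11 and 0.08, and the called genes farthest from 0 are Pde10a in astrocyte-like and Pde4b and Pde1c in Drd3-rich nuclei.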

How the data were processed

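The deposited UMI counts (whole numbers, not normalized) were made by the authors with Cell Ranger for genome build rn7, per the submitters' processing notes. Aligner settings and annotation were not given in the sources used here. Reads of near copies and of overlapping genes may be split between them.

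Nuclei were kept from 200 genes upward and up to 5% mitochondrial UMIs, and the highest Scrublet scores, 0.8% per 1000 nuclei, were removed as doublets (1381 nuclei). Clusters came from scanpy 1.11.5 and leidenalg 0.10.2 at resolution 0.5 on 2000 variable genes without the 6 members, immediate-early, mitochondrial and sex-linked genes. They were named from marker lists with score limits set after the data were seen. Of 100 markers, 4 were not among the listed symbols.

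UMIs were summed per library and class and tested with edgeR 4.0.16 (quasi-likelihood, TMM, filterByExpr, sex as a covariate, Benjamini-Hochberg at 0.05, R 4.3.3), and with DESeq2 1.42.0 as an alternative. CPM values are not TMM-scaled. Fits were tested on simulated data. Ratios between the female or the male pools compare 1 library with 1, untested, after adding 0.5 to each count. Named are the 6 genes, called genes of the pathway list (up to 6 per class), and the 3 genes most like each of the 6. The members and lists were chosen with earlier results of these data known.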

Additional observations from a re-analysis of the deposited data

How the results depend on the processing

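The alternatives were RLE scaling, DESeq2, no filter on low counts, no sex covariate, doublets kept, at least 1000 genes per nucleus, cluster resolution 1.0, a gate on marker UMIs for D1-like and D2-like nuclei, and leaving out each library without the sex covariate, where the lone library of a treatment is assumed to vary like the other 2. None of the 6 genes was called against saline under any of them. With no filter on low counts 1 gene, Adora2a, was called for the difference between D2-like and D1-like nuclei (-1.06). Stability was counted for 16 results. These were the 6 genes in D1-like and in D2-like nuclei, Ppp1r1b in oligodendrocyte-like nuclei, Adora1 and Adora2a in astrocyte-like nuclei, and Adora2a for that difference. Other tests of the 6 genes are not in the counts. None of the 16 was called in the main fit, so keeping the side of the threshold meant staying uncalled. Over settings with all 4 libraries, 118 of 120 of their values kept direction and side of the threshold. The exception in direction was Ppp1r1b in D1-like nuclei, at -0.016 under the gate. On leaving out 1 library, where the difference was not refitted, 50 of 60 did. The others crossed 0, with log2 fold changes from -0.29 to 0.061 for Adora1, -0.67 to 0.66 for Gpr6, -0.22 to 0.98 for Gpr52 and -0.049 to 0.12 for Ppp1r1b in D1-like nuclei, and from -0.21 to 0.0035 for Adora2a, -0.12 to 0.42 for Gpr6 and -0.11 to 0.20 for Ppp1r1b in D2-like nuclei. Within these ranges the other values on the far side of 0 were -0.13 for Gpr6 in D1-like nuclei, and -0.096 for Gpr6 and -0.017 for Ppp1r1b in D2-like nuclei.

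Against 11 calls of the pathway list there were 3 with DESeq2, 1 without the sex covariate and 4 to 11 on leaving out 1 library (4 if the cocaine male library was left out, 6 if either female library was). Of the 11 genes, 3 were still called with DESeq2, 1 without the sex covariate, 5 without either saline library, 4 without the cocaine female and 3 without the cocaine male library. The gate called 2 list genes in place of 1 in D1-like and D2-like nuclei. The D1-like Reln cluster alone, chosen after the data were seen, called 1 in place of 0 (Ppp1r2, at -0.30), where 2.02% of all genes were called. With doublets kept, Pde4b in Drd3-rich nuclei was 0.24 in place of -2.86, and the cause was not tested. Thinning to 1000 UMIs moved the mean share of nuclei with a UMI from 74.6% to 19.1% for Adora2a in D2-like, 41.0% to 7.11% for Gpr6 in D2-like, 27.9% to 4.39% for Gpr52 in Casz1- and Drd2-rich, 96.4% to 52.3% for Adcy5 in D1-like, 72.2% to 17.4% for Ppp1r1b in D1-like and 24.5% to 9.25% for Adora1 in oligodendrocyte precursor-like nuclei. The labels give no replicate numbers, and the sex covariate is the only block that pairs the pools: without it the calls over all genes in D1-like nuclei went from 38 to 0. Floors cover counting error only. Intervals of fold changes rest on the spread between 2 pools per treatment, shared over genes in part or, in the classes named above, in full.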

Other observations

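Unnamed clusters also held some of these genes. A cluster of 84 nuclei had a median of only 955.5 UMIs. The vascular markers Rgs5 and Vtn were among the 10 genes highest in it relative to other nuclei. Its Adora2a was at 26.5 to 395 CPM over the 4 libraries, on 15 UMIs, with 10 UMIs of Drd2 and 0 of Drd1. Its Adcy5 rested on 39 UMIs and its Ppp1r1b on 9. Another unnamed cluster of 79 nuclei, with a median of 1219 UMIs, had 32 Drd2 UMIs, 4 Adora2a UMIs and 36 Adcy5 UMIs. Genes highest in it relative to other nuclei included Mecom, Adgrl4 and Slco1a4.

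Some values are given by the sex of the pool, with no test. In D1-like nuclei Adora1 was at 23.7 CPM (saline) and 21.1 CPM (cocaine) in female pools and at 18.7 and 18.3 CPM in male pools. In D2-like nuclei the log2 ratio of cocaine over saline for Adora2a was -0.18 between the female pools and 0.05 between the male pools, and for Ppp1r1b it was -0.01 and 0.19. In oligodendrocyte-like nuclei Ppp1r1b gave 0.70 and 0.69. Cholinergic nuclei were too few to test (8 in the cocaine male library), and over 82 nuclei they held 132 Adcy5 UMIs, 23 Ppp1r1b UMIs and 8 Adora2a UMIs.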
